A study of Arabidopsis thaliana with 18 samples.

Results

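The class II homeodomain-leucine zipper (HD-ZIP II) genes were followed in dark-grown organs of the Arabidopsis thaliana mutant pifq and of the wild type. The 9 genes ATHB2, HAT1, HAT2, HAT3, ATHB4, HAT9, HAT14, HAT22 and ATHB17 were taken by locus code, with no use of their values, and each was found in the files of every library among 26073 genes. The pifq plants are labelled pif1pif3pif4pif5 -/-/-/- and the wild type (WT) carries none of these mutations. Both are of the ecotype Col-0, and both grew for 4 d at 22 °C without light on MS medium with 3% sucrose. RNA sequencing was done on cotyledon, hook and hypocotyl of each genotype, in 3 libraries per organ and genotype and 18 in all. The labels name neither the mutant alleles nor the number of plants in a library. They number the libraries of a group without saying that they came from separate cultures, so p-values measure only the spread between these libraries, which may be technical.

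HD-ZIP II proteins bind DNA as dimers through a homeodomain joined to a leucine zipper, and most carry an EAR motif that recruits TOPLESS corepressors and makes them repressors of transcription. ATHB2 is the classic early gene of shade avoidance, induced within minutes when the red to far-red ratio of light falls, and it promotes elongation of the hypocotyl. HAT1 and HAT2 are its closest relatives, HAT3 and ATHB4 form another pair, and both groups respond to shade and act with auxin in organ polarity and vascular development. PIF proteins are basic helix-loop-helix factors that accumulate in the dark, keep seedlings etiolated, and bind and activate shade genes. ATHB2 itself is a known PIF target in shade, and the comparison asks how the family stands in etiolated organs when these PIFs are mutated.

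Levels are in FPKM, fragments scaled by exon length and library size, so that levels of different genes can be compared per length. Whole-read steps in the low values gave each library a denominator of 12955848 to 20701158 reads or read pairs, so that 1 read per kb of exon equals 0.0483 to 0.0772 FPKM. PIF3, one of the mutated loci, averaged 3.16 ± 0.437 FPKM in pifq and 54.4 ± 2.81 FPKM in WT cotyledons (SD, n = 3 each), and PIF5 averaged 3.29 ± 0.416 FPKM in pifq and 13.0 ± 2.07 FPKM in WT cotyledons. PIF3 was lower in pifq by 17.2-fold, 43.9-fold and 13.2-fold in cotyledon, hook and hypocotyl, and PIF5 by 3.97-fold, 4.12-fold and 1.82-fold. PIF1 and PIF4 transcripts remained in pifq, at 17.2 ± 1.06 FPKM for PIF1 and 18.9 ± 2.68 FPKM for PIF4 in hypocotyls. Their means there were 2.04 and 3.00 times those in WT. The ratios were 0.596 and 1.18 in hooks and 0.837 and 1.10 in cotyledons. Since the alleles are not given, PIF1 and PIF4 check nothing. Organelle-encoded genes took a median of 0.154%, 0.117% and 0.870% of all FPKM in pifq cotyledons, hooks and hypocotyls and 3.07%, 3.04% and 1.85% in WT, so this share moved with genotype in cotyledons and hooks. Scaling mattered as well: the median change of all 19349 genes tested was -0.10, 0.12 and 0.17 on the log2 scale in cotyledon, hook and hypocotyl, and 0.04, -0.02 and -0.03 after median-ratio scaling of the libraries. That rescaling moved the share of calls that were higher in pifq to 54.6% against 40.8% as deposited in cotyledons, to 48.7% against 60.4% in hooks and to 46.5% against 68.5% in hypocotyls. In whole-organ RNA, fewer cells of a type and less RNA per cell cannot be told apart.

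The sequence upstream of each gene was searched for 3 motifs, in the 1000 bases before the annotated start, on both strands, in the TAIR10.1 assembly. CACGTG, the G-box that PIFs bind, was in the window of 2 of the 9 genes, HAT14 and ATHB17, and in 14.8% of the windows of 27431 protein-coding genes. HAT14 and ATHB17 are also the members with the 2 largest ratios of pifq to WT levels in each organ, and their 300 bases are shown for that reason, each read 5′ to 3′ on the strand of the gene with the G-box in capitals. A link between the motif and these ratios was not tested. The ATHB17 ratio in cotyledons rests on 3 WT reads in all, and ATHB17 passed the filter through pifq libraries alone. The HAT14 window is chr5:2070567-2070866 on the minus strand, with the G-box beginning 225 bases before the start, and the ATHB17 window is chr2:190370-190669 on the minus strand, with the G-box beginning 243 bases before it.
HAT14: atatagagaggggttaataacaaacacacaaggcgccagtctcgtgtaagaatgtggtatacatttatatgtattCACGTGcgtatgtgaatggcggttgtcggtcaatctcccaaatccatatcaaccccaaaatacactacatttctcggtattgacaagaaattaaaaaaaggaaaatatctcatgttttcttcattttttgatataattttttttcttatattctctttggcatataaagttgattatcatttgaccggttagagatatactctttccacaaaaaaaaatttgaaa
ATHB17: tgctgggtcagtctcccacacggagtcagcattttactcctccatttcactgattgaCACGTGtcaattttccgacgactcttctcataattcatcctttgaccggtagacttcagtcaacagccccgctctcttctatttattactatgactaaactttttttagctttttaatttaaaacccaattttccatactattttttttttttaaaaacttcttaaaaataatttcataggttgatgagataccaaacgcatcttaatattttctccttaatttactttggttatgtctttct

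CACATG, the PBE-box and the other hexamer known to be bound by PIFs, was in the windows of 4 of the 9 genes, HAT1, HAT2, HAT3 and HAT22, and in 37.7% of all windows. HAT2 had 3 copies, HAT1 and HAT22 had 2 and HAT3 had 1, and 1 of those of HAT22 lay in an annotated neighbour, AT4G09665. CAATNATTG, a palindrome that covers the sites of HD-ZIP I and HD-ZIP II proteins, was in 2 of the 9 windows, those of ATHB2 and HAT1, and in 3.44% of all windows. These 2 are shown because they lie upstream of HD-ZIP II genes themselves, with the match in capitals and 12 bases on each side. The ATHB2 match is of the form that class I proteins bind best in vitro, and the HAT1 match is of the form that class II proteins bind best. The ATHB2 stretch is at chr4:9448625-9448657 on the plus strand and has its match beginning 477 bases before the start, and the HAT1 stretch is at chr4:9738768-9738800 on the plus strand and has its match beginning 738 bases before it.
ATHB2: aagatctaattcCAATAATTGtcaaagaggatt
HAT1: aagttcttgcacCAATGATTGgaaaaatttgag
No match of one motif overlapped a match of another in these windows, and binding was not measured.

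Most of the family was more abundant in pifq. Calls rest on limma's test of log2(FPKM + 1), with the p of all genes in a contrast adjusted together and a threshold of 0.05, and a change on this scale understates that of a gene at a low level. All 9 genes passed the minimum of 1 FPKM in 3 libraries, but ATHB17 passed through 6 pifq libraries and no WT library, so counts are given over the other 8. In cotyledons 5 of the 8 rose, 2 fell and 1 was not called, and 59.8% of all genes tested were called, 24.4% higher and 35.4% lower. The same 5 and 2 had groups that did not overlap, as did 28.3% of all genes upward and 39.3% downward. Hooks had 5 rises, 1 fall and 2 genes without a call, against 60.7% of all genes called, 36.6% higher and 24% lower. The pifq libraries were all above WT for 7 and all below for 1, beside 39.8% and 26.5% of all genes. In hypocotyls 5 rose and 3 were not called, against 52.4% of all genes called, 35.9% higher and 16.5% lower. There 5 had pifq all above WT and 1 all below, beside 37.9% and 18.2% of all genes. Since most genes were called in each organ, 7, 6 and 5 calls among 8 genes say little by themselves, and the members lay more to the higher side: their median change was 0.72, 0.49 and 0.81 in cotyledon, hook and hypocotyl, beside all-gene medians of -0.10, 0.12 and 0.17. Of the 8, ATHB2, HAT1, HAT2 and HAT14 had every pifq library above every WT library in all 3 organs, as did 15.5% of all genes. These are descriptions of a chosen family and carry no test of their own. Of the 18 calls of the 8 genes, 9 were lost when the organelle share of each library, which differed between the genotypes, was a covariate. They were the calls of HAT1 in cotyledons, hooks and hypocotyls (adjusted p = 0.358, 0.447 and 0.109), of ATHB2 in cotyledons (0.257) and hooks (0.691), of HAT3 in cotyledons (0.0807) and hooks (0.357), and of ATHB4 (0.419) and HAT9 (0.0635) in cotyledons. The SE grew in each of these. In cotyledons the change itself did not shrink for HAT9 (0.55 ± 0.22 before and 1.007 ± 0.39 with the covariate). Nor did it for HAT3 there (-0.49 ± 0.12 before and -0.53 ± 0.22 with it). The other lost calls had smaller changes with the covariate.

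**Figure D1:**
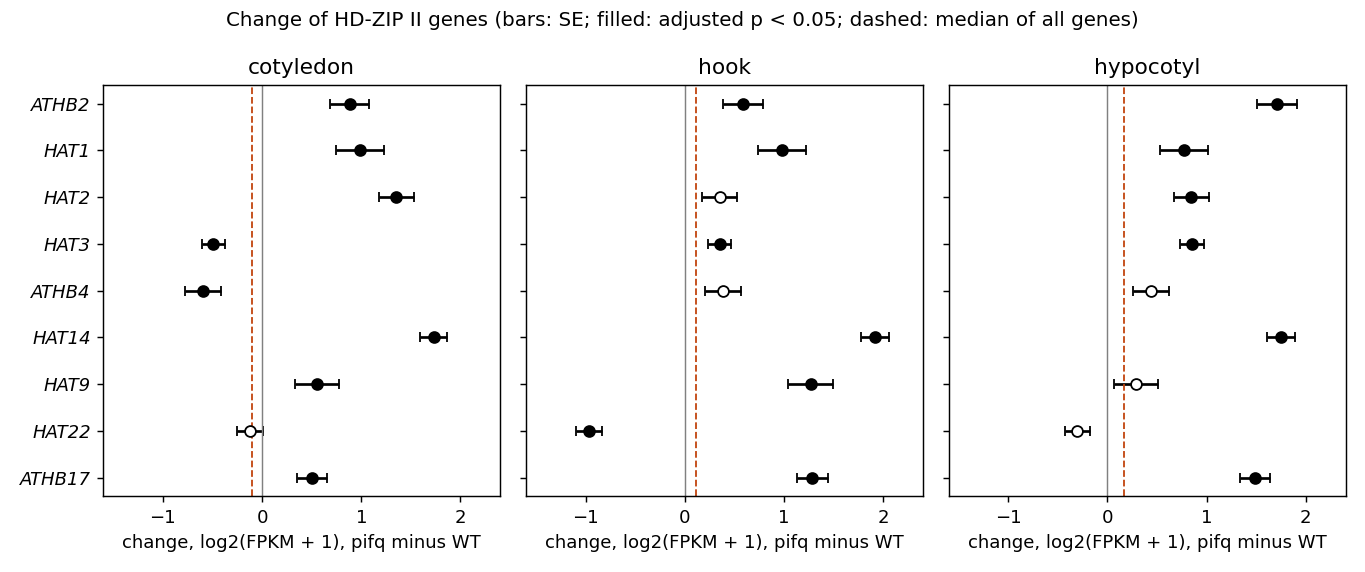
Change of each HD-ZIP II gene, pifq minus WT, in log2(FPKM + 1) (horizontal axis) in cotyledon, hook and hypocotyl, with bars for the SE of the limma fit, filled points for an adjusted p under 0.05, and a dashed line at the median of all genes. HAT14 lies far right in every organ (1.73, 1.92 and 1.75), HAT22 lies left of 0 in every organ (-0.12, -0.97 and -0.30), and HAT3 and ATHB4 are left of 0 in cotyledons and right of it elsewhere.

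ATHB2, HAT1 and HAT2 were higher in pifq wherever they were called, in 8 of 9 comparisons. Of all genes, 24.4%, 36.6% and 35.9% were called higher in cotyledon, hook and hypocotyl. ATHB2 (AT4G16780, TAIR10.1 chromosome 4, 9449114 to 9450905, plus strand) had 6.25, 4.74 and 5.57 FPKM in pifq cotyledons and 3.18, 1.69 and 2.88 FPKM in WT cotyledons. Its hooks had 13.3, 18.3 and 15.7 FPKM in pifq and 11.4, 9.43 and 9.47 FPKM in WT. Hypocotyls held 14.3, 15.0 and 20.6 FPKM of it in pifq and 3.41, 3.79 and 6.16 FPKM in WT. Every pifq library was above every WT library of its organ. The ratio of mean levels, pifq over WT, was 2.14 in cotyledons, 1.56 in hooks and 3.74 in hypocotyls. On the log2 scale the change was 0.88, 0.59 and 1.71 with an SE of 0.20 each, and limma's adjusted p was 0.00118, 0.0178 and 3.68e-06. The hypocotyl change exceeded the hook change by 1.12 ± 0.28 (SE, adjusted p = 0.00748) and the cotyledon change by 0.83 ± 0.28 (adjusted p = 0.0251). Over the 8 genes, such differences between organs were called higher for 2 and lower for 2 in hook minus cotyledon (30.5% and 10.9% of all genes, 41.4% in all), higher for 3 in hypocotyl minus cotyledon (34.7% higher and 11% lower, 45.7% in all), and higher for 3 and lower for 1 in hypocotyl minus hook (16.6% and 12.5%, 29.1% in all). Scaling moved these splits: with median-ratio scaling the hypocotyl minus cotyledon difference was no longer called for ATHB2 and was called lower for HAT2 (-0.95, adjusted p = 0.00627) and HAT22 (-0.63, adjusted p = 0.0196). Over all genes, 40.4% of the calls for hypocotyl minus cotyledon were then higher, against 75.8% as deposited, and 40.3% against 73.6% for hook minus cotyledon. The hook rise rested on single libraries: its adjusted p was 0.0548 without WT hook replicate 2, 0.0543 without WT hook replicate 3, 0.0749 without pifq hook replicate 2, and 0.0713 with median-ratio scaling. The hypocotyl minus cotyledon difference missed the threshold when any of 6 libraries was left out, WT cotyledon replicates 1 and 3, WT hypocotyl replicates 1 and 2, pifq cotyledon replicate 2 and pifq hypocotyl replicate 3, with adjusted p from 0.0542 to 0.0677. It was 0.43 with median-ratio scaling (adjusted p = 0.238), and limma-voom (0.119) and a pseudocount of 0.1 (0.0666) also ended the call.

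HAT1 (AT4G17460, chromosome 4, 9739518 to 9741234, plus strand) was nearly absent from WT cotyledons. It had 2.21, 2.24 and 1.18 FPKM in pifq cotyledons and 0.374, 0.480 and 0.436 FPKM in WT cotyledons, the last from 7, 12 and 11 reads. In hooks it had 10.8, 17.3 and 10.11 FPKM in pifq and 5.17, 5.02 and 7.39 FPKM in WT. Hypocotyls had 16.1, 14.7 and 18.6 FPKM in pifq and 9.49, 5.999 and 13.6 FPKM in WT. No pifq library overlapped a WT library of its organ, though WT hypocotyl replicate 3, at 13.6 FPKM, came near to the lowest pifq value. Mean levels in pifq were 4.37, 2.18 and 1.70 times those in WT in cotyledon, hook and hypocotyl, and the log2 changes were 0.99, 0.98 and 0.77 (SE 0.24 each) with adjusted p of 0.0022, 0.00229 and 0.014. On the log2(FPKM + 1) scale the changes in the organs did not differ beyond their error, with adjusted p of 0.632 to 0.995 for the 3 differences. WT cotyledons averaged 0.430 FPKM, under the 1 added before the log, so this scale understates the cotyledon change. The organs are therefore not shown to be alike. The hypocotyl call was lost without WT hypocotyl replicate 2 (adjusted p = 0.0857), without pifq hypocotyl replicate 3 (0.0508) and with median-ratio scaling (0.0697). With the organelle share as a covariate no HAT1 call was left, and the changes were 0.56, 0.50 and 0.58 in cotyledon, hook and hypocotyl.

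HAT2 (AT5G47370, chromosome 5, 19216271 to 19218007, minus strand), which in other work is induced quickly by auxin, had its largest change in cotyledons. There it had 18.7, 17.1 and 14.7 FPKM in pifq and 6.997, 4.87 and 6.16 FPKM in WT. Hooks had 24.9, 32.2 and 24.2 FPKM in pifq and 19.4, 19.4 and 23.9 FPKM in WT. In hypocotyls the values were 31.7, 32.0 and 47.2 FPKM in pifq and 17.7, 17.5 and 24.9 FPKM in WT. The groups did not overlap in any organ, but in hooks the lowest pifq and the highest WT library were almost level. The ratios of mean levels were 2.80, 1.30 and 1.85, and the log2 changes were 1.35, 0.35 and 0.85 (SE 0.18 each). Cotyledons (adjusted p = 6.26e-06) and hypocotyls (0.000805) passed the test and hooks (0.0941) did not. The hook change was smaller than the cotyledon change by 1.001 ± 0.25 (SE, adjusted p = 0.00461), a difference that passed with each library left out in turn.

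**Figure D2:**
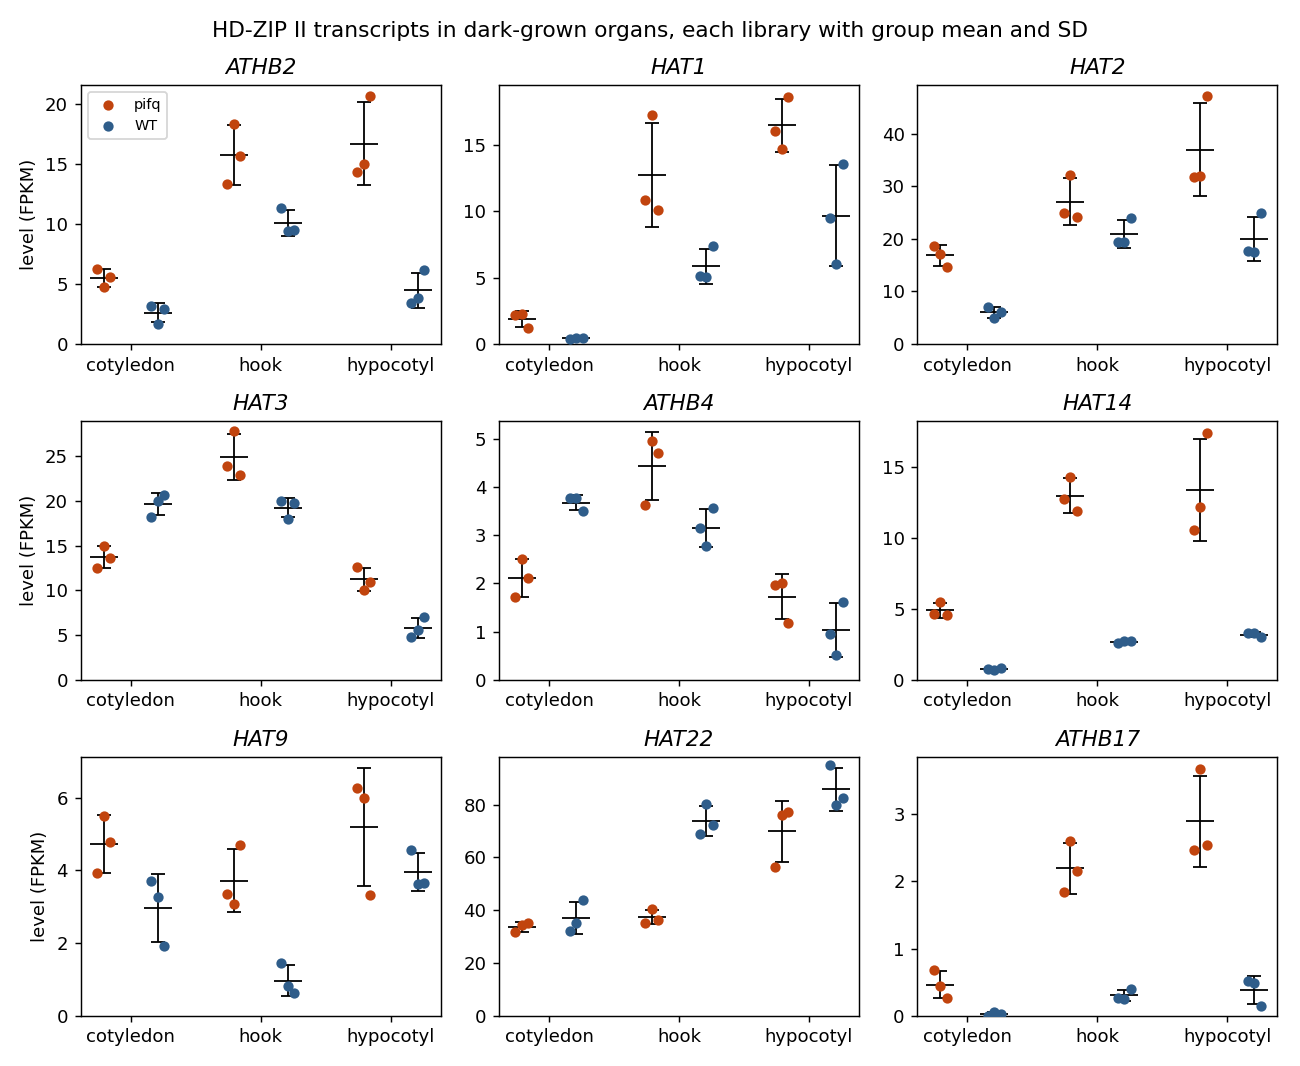
FPKM (vertical axis, from 0, scaled per gene) of the 9 HD-ZIP II genes in each library, with pifq left of WT in each organ and bars for the mean and SD of 3 libraries. ATHB2, HAT1, HAT2, HAT14 and ATHB17 have every pifq library above every WT library of its organ, HAT22 in hooks has 35.2 to 40.4 FPKM in pifq against 69.1 to 80.2 FPKM in WT, and HAT3 changes side between cotyledon and hook.

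HAT3 and ATHB4, the pair that with ATHB2 patterns the upper side of leaves and cotyledons, fell in pifq cotyledons, and HAT3 rose in the other organs. HAT3 (AT3G60390, chromosome 3, 22320580 to 22322661, minus strand) had 12.5, 15.0 and 13.6 FPKM in pifq cotyledons and 18.2, 19.96 and 20.7 FPKM in WT cotyledons. In hooks it had 23.9, 27.8 and 22.9 FPKM in pifq and 20.004, 17.98 and 19.7 FPKM in WT. Hypocotyls had 12.6, 10.09 and 10.98 FPKM in pifq and 4.83, 5.59 and 6.99 FPKM in WT. All pifq libraries were below all WT libraries in cotyledons and above them in hooks and hypocotyls. The log2 changes were -0.49, 0.35 and 0.85 (SE 0.12 each) with adjusted p of 0.00194, 0.0174 and 2.12e-05. The change in hooks exceeded that in cotyledons by 0.84 ± 0.17 (SE, adjusted p = 0.000919), and the change in hypocotyls exceeded it by 1.34 ± 0.17 (adjusted p = 1.44e-05). Both held with every library left out in turn. The hook rise did not: its adjusted p was 0.0669 without WT hook replicate 2, 0.0815 without pifq hook replicate 2 and 0.174 with median-ratio scaling. The hypocotyl minus hook difference, 0.50 ± 0.17 (adjusted p = 0.0343), was likewise lost without any of 7 libraries, WT hook replicates 1 and 3, WT hypocotyl replicates 1 and 2, pifq hook replicates 1 and 3 and pifq hypocotyl replicate 1 (adjusted p of 0.0582 to 0.085).

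ATHB4 (AT2G44910, chromosome 2, 18517656 to 18519731, minus strand) had the same signs as HAT3 at lower levels. Its cotyledons had 1.72, 2.50 and 2.10 FPKM in pifq and 3.77, 3.77 and 3.49 FPKM in WT, with no overlap. Hooks had 3.63, 4.96 and 4.70 FPKM in pifq and 3.14, 2.77 and 3.55 FPKM in WT, again without overlap. Hypocotyls had 1.98, 2.01 and 1.18 FPKM in pifq and 0.955, 0.518 and 1.62 FPKM in WT, and there the groups overlapped. The log2 changes were -0.60, 0.38 and 0.44 (SE 0.18 each). The fall in cotyledons passed the test (adjusted p = 0.00947), while hooks (0.0787) and hypocotyls (0.0507) did not. Beyond the cotyledon change, the hook change lay higher by 0.98 ± 0.26 (SE, adjusted p = 0.00627) and the hypocotyl change by 1.04 ± 0.26 (adjusted p = 0.00375). The 2 missed calls depended on the settings: the hook change was called without WT hypocotyl replicate 2 (0.046) or 3 (0.0445) or pifq hook replicate 1 (0.0478), and the hypocotyl change without WT hypocotyl replicate 3 (0.0067), pifq hypocotyl replicate 3 (0.0165) or pifq hook replicate 1 (0.0498).

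Lists of cotyledon blade and shoot apex genes moved between the genotypes as well, and only some of their members had the directions of HAT3. FIL, YAB3 and AN3, regulators of blade growth, fell in pifq cotyledons (log2 changes of -0.56, -0.85 and -1.10) and rose in hooks (1.21, 0.63 and 1.10). In hypocotyls AN3 rose (0.60), YAB3 fell (-0.50) and FIL was not called (0.33, adjusted p = 0.159). The lipid-reserve genes ICL, MLS and PCK1 fell in cotyledons (-3.93, -3.48 and -3.06), hooks (-3.34, -3.09 and -2.30) and hypocotyls (-0.82, -1.38 and -0.94), unlike HAT3. These were a list of 6, of which all 6 fell in cotyledons, 3 rose and 3 fell in hooks, and 1 rose and 4 fell in hypocotyls. The summed level of the 6 was 608 to 765 FPKM in pifq and 7739 to 9425 FPKM in WT cotyledons, 371 to 546 FPKM in pifq and 2215 to 3087 FPKM in WT hooks, and 549 to 746 FPKM in pifq and 977 to 1643 FPKM in WT hypocotyls. Of 10 meristem and boundary genes, 8 were tested, with 4 lower in cotyledons, 4 higher in hooks and 3 higher in hypocotyls. Beside both lists, 24.4%, 36.6% and 35.9% of all genes were called higher in cotyledon, hook and hypocotyl, and 35.4%, 24% and 16.5% lower. STM, the meristem homeobox gene, averaged 0.603 ± 0.325 FPKM in pifq and 4.11 ± 1.21 FPKM in WT cotyledons, and 12.9 ± 3.71 FPKM in pifq and 8.84 ± 1.44 FPKM in WT hooks (adjusted p = 0.0788). The summed meristem list was 4.84 to 6.72 FPKM in pifq and 11.2 to 18.1 FPKM in WT cotyledons, 87.4 to 147 FPKM in pifq and 83.3 to 105 FPKM in WT hooks, and 128 to 183 FPKM in pifq and 56.8 to 74.4 FPKM in WT hypocotyls. WUS, which marks the stem cell niche, was at 0 in every cotyledon library and in WT hooks. Their part in the changes of HAT3 and ATHB4 was not tested.

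HAT14 rose in all 3 organs. It is a less studied member (AT5G06710, chromosome 5, 2067941 to 2070566, minus strand), with the G-box shown above. Cotyledons had 4.64, 5.47 and 4.53 FPKM in pifq and 0.755, 0.699 and 0.853 FPKM in WT. Hooks had 12.7, 14.3 and 11.9 FPKM in pifq and 2.59, 2.73 and 2.74 FPKM in WT, and hypocotyls had 10.503, 12.1 and 17.4 FPKM in pifq and 3.31, 3.26 and 2.99 FPKM in WT. The lowest pifq library of any organ, 4.53 FPKM in cotyledons, was above the highest WT library, 3.31 FPKM in hypocotyls. Mean levels in pifq were 6.35, 4.83 and 4.19 times those in WT in cotyledon, hook and hypocotyl. The log2 changes were 1.73, 1.92 and 1.75 (SE 0.14 each) with adjusted p of 2.75e-08, 9.71e-09 and 5.65e-08, and all 3 calls held under every alternative run. In pifq and in WT alike the hook and hypocotyl levels were above the cotyledon level, by log2 differences of 1.25 and 1.26 in pifq and 1.06 and 1.24 in WT. No difference of its change between organs was called (adjusted p of 0.469 to 0.949), and the sign of the 2 differences from cotyledon turned negative with median-ratio scaling, a smaller pseudocount or a count model.

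HAT9 and HAT22, close relatives of each other, moved in opposite directions in hooks. HAT9 (AT2G22800, chromosome 2, 9704632 to 9706217, minus strand) had 3.36, 3.08 and 4.71 FPKM in pifq hooks and 1.45, 0.812 and 0.630 FPKM in WT hooks, the WT values from 34, 16 and 14 reads. The groups were far apart, and the mean in pifq was 3.85 times that in WT. The log2 change was 1.27 ± 0.22 (SE) with an adjusted p of 0.000139. In cotyledons HAT9 had 3.92, 5.51 and 4.77 FPKM in pifq and 3.71, 3.26 and 1.92 FPKM in WT, a log2 change of 0.55 ± 0.22 (adjusted p = 0.0436). The lowest pifq and highest WT libraries there lay side by side, and the call was lost when any of 7 libraries was left out: WT cotyledon replicates 2 and 3, WT hook replicate 2, WT hypocotyl replicate 3, pifq cotyledon replicates 2 and 3 and pifq hook replicate 1, with adjusted p from 0.0504 to 0.221. Hypocotyls had 6.26, 5.99 and 3.32 FPKM in pifq and 4.57, 3.63 and 3.66 FPKM in WT, which overlapped and were not called (0.29 ± 0.22, adjusted p = 0.297). The hypocotyl change was smaller than the hook change by 0.98 ± 0.32 (adjusted p = 0.0291). That difference missed the threshold without WT hook replicate 2 or 3, WT hypocotyl replicate 1, pifq hook replicate 3 or pifq hypocotyl replicate 3 (adjusted p of 0.0602 to 0.0768).

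HAT22 (AT4G37790, chromosome 4, 17768042 to 17769676, plus strand), also known as ABIG1 and linked to abscisic acid and drought in leaves, was the most abundant HD-ZIP II transcript in all 6 groups. Hooks had 35.2, 40.4 and 36.4 FPKM in pifq and 69.1, 80.2 and 72.5 FPKM in WT. Every pifq hook was well below every WT hook, by 1.98-fold in the means, with a log2 change of -0.97 ± 0.13 (SE, adjusted p = 8.54e-06) that held under every alternative run. Cotyledons had 31.6, 34.3 and 34.96 FPKM in pifq and 32.0, 34.97 and 43.8 FPKM in WT, which overlapped (-0.12 ± 0.13, adjusted p = 0.445). Hypocotyls had 56.5, 76.0 and 77.1 FPKM in pifq and 95.0, 79.9 and 82.6 FPKM in WT. There the groups did not overlap, and the log2 change of -0.30 ± 0.13 was just short of a call (adjusted p = 0.0586). It was called lower with median-ratio scaling (0.00439) and without WT cotyledon replicate 3 (0.0392), pifq hypocotyl replicate 2 (0.0422) or pifq hypocotyl replicate 3 (0.0359). The hook change lay below the cotyledon change by 0.85 on the log2 scale (-0.85 ± 0.18, adjusted p = 0.00164), and the hypocotyl change lay above the hook change by 0.66 ± 0.18 (adjusted p = 0.0125).

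ATHB17 and its relative ATHB18 were scarce in WT, with group means under 1 FPKM in every WT organ. ATHB17 (AT2G01430, chromosome 2, 187608 to 190369, minus strand), which is linked to abscisic acid and stress responses, had 0.677, 0.443 and 0.269 FPKM in pifq cotyledons and 0, 0.0490 and 0.0243 FPKM in WT cotyledons. These rest on 32, 21 and 13 reads in pifq and on 0, 2 and 1 reads in WT. In hooks it had 1.84, 2.60 and 2.15 FPKM in pifq and 0.262, 0.254 and 0.400 FPKM in WT. Hypocotyls had 2.47, 3.68 and 2.54 FPKM in pifq and 0.518, 0.490 and 0.147 FPKM in WT. No groups overlapped. Summed reads, scaled by library size, were 17.3 times as many in pifq as in WT cotyledons (exact 95% interval 5.68 to 86.2), 7.26 times in hooks (5.12 to 10.6) and 7.58 times in hypocotyls (5.54 to 10.6), intervals that cover counting error only. The log2 changes of 0.51, 1.29 and 1.49 (SE 0.15 each) had adjusted p of 0.00933, 2.58e-06 and 9.68e-07. ATHB17 entered the test through 6 pifq libraries and no WT library, so its p-values add no support of their own. The cotyledon call was lost without pifq cotyledon replicate 1 (0.0516). Its change was larger by 0.78 ± 0.22 in hooks (adjusted p = 0.00881) and by 0.98 ± 0.22 in hypocotyls (0.00167) than in cotyledons, but a count model of the recovered reads gave -0.87 and -0.64 for these differences, neither called. A pseudocount of 0.1 ended both calls (adjusted p = 0.601 and 0.393), and median-ratio scaling ended the hook one (0.0588). ATHB18 (AT1G70920), its close relative outside the 9, had 15, 60 and 172 reads in all in pifq cotyledons, hooks and hypocotyls and 2, 2 and 39 in WT. It was highest in hypocotyls, with 2.10, 2.73 and 2.69 FPKM in pifq and 0.421, 0.669 and 0.925 FPKM in WT, and like ATHB17 it reached 1 FPKM in no WT library. Its log2 changes were 0.23 in cotyledons (adjusted p = 0.181), 0.86 in hooks (7.21e-05) and 1.07 in hypocotyls (1.32e-05), with an SE of 0.14 each. ATHB18 entered the test through 5 pifq libraries and no WT library, so the same limit holds.

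The organs differed within each genotype too. In pifq, 6 of the 8 genes other than ATHB17 were higher in hook than in cotyledon, against 64.7% of all genes called, 53.4% higher and 11.4% lower. HAT9 and HAT22 were not called. Of the same 8, 5 were higher in hypocotyl than in cotyledon and 3 were not called (71.9% of all genes called, 49.5% higher and 22.4% lower), and 2 were higher (HAT22 and HAT2) and 2 lower (HAT3 and ATHB4) in hypocotyl than in hook (64.6%, with 27.1% higher and 37.6% lower). In WT, 5 were higher in hook than in cotyledon and HAT9 was lower (57.8% of all genes called, 33.9% higher and 23.9% lower). There, 5 were higher in hypocotyl than in cotyledon and 2, HAT3 and ATHB4, were lower (74%, with 36.3% higher and 37.7% lower), and 2 were higher and 3 lower in hypocotyl than in hook (64.8%, with 22.8% higher and 41.9% lower). Scaling weighs on the pifq hook and cotyledon contrast: 82.5% of its calls over all genes were higher in hook, and 43.6% after median-ratio scaling, which also ended the calls of HAT2 (adjusted p = 0.511) and ATHB4 (0.0732). Leaving out single libraries ended 3 of the other calls: HAT2 in pifq hypocotyl against hook (0.0502 to 0.244 without any of 8 libraries), HAT1 in WT hypocotyl against hook (0.0886 to 0.229 without WT hook replicate 1 or 2 or WT hypocotyl replicate 1 or 3), and ATHB2 in WT hypocotyl against cotyledon (0.0864 without WT cotyledon replicate 2 and 0.0895 without WT hypocotyl replicate 3). The 8 libraries were WT cotyledon replicate 3, WT hook replicates 1 and 2, pifq cotyledon replicates 1 and 2, pifq hook replicates 1 and 3 and pifq hypocotyl replicate 3. HAT1 had the widest range between organs: hypocotyl exceeded cotyledon 8.78-fold in pifq (log2 difference 2.62, adjusted p = 6.32e-08) and 22.5-fold in WT (2.84, adjusted p = 2.14e-08).

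Several genes ranked the organs differently in the 2 genotypes. ATHB2 stood at 16.7 ± 3.44 FPKM in hypocotyls and 15.8 ± 2.50 FPKM in hooks of pifq, levels that overlapped, whereas in WT it stood at 4.45 ± 1.49 FPKM in hypocotyls and 10.09 ± 1.10 FPKM in hooks. In WT it was therefore lower in hypocotyl than in hook by 2.26-fold (log2 difference -1.05, adjusted p = 0.000252), and in pifq the difference was 0.07 (adjusted p = 0.775). HAT3 stood highest in pifq hooks (24.9 ± 2.58 FPKM), above WT cotyledons (19.6 ± 1.26) and WT hooks (19.2 ± 1.10), which overlapped. Hook exceeded cotyledon for HAT3 by 0.81 on the log2 scale in pifq (adjusted p = 2.81e-05), and in WT the difference was -0.03 (adjusted p = 0.862). HAT22 went the other way: hook exceeded cotyledon by 0.15 in pifq (adjusted p = 0.335) and by 0.99 in WT (adjusted p = 6.85e-06). HAT9 was lowest in WT hooks, 3.07-fold below WT cotyledons (log2 difference -1.005, adjusted p = 0.00109), and its pifq hooks and cotyledons overlapped (-0.29, adjusted p = 0.272). In HAT9 all other neighbours in the order of levels overlapped.

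Summed over the 9 genes, HD-ZIP II transcripts amounted to 83.8 ± 3.11 FPKM in pifq and 73.0 ± 6.30 FPKM in WT cotyledons, 141 ± 17.2 FPKM in pifq and 137 ± 4.16 FPKM in WT hooks, and 174 ± 23.4 FPKM in pifq and 134 ± 11.9 FPKM in WT hypocotyls (SD, n = 3 each). In the values as deposited, the libraries of the 2 genotypes overlapped in hooks and not in the other organs. Median-ratio scaling would divide hypocotyl libraries by median factors of 1.08 in pifq and 0.915 in WT, and the sum was not rescaled. What the sum was made of differed more. HAT22 was 40.2 ± 2.30% of the sum in pifq and 50.4 ± 4.12% in WT cotyledons, 26.6 ± 1.26% in pifq and 53.9 ± 3.44% in WT hooks, and 40.0 ± 3.78% in pifq and 64.0 ± 5.37% in WT hypocotyls. ATHB2, the shade marker, held 11.1 ± 0.804% in pifq and 7.38 ± 1.04% in WT hooks, and 9.51 ± 0.812% in pifq and 3.30 ± 0.949% in WT hypocotyls. HAT14 held 9.21 ± 0.530% in pifq and 1.959 ± 0.00755% in WT hooks. In cotyledons HAT2 had 20.1 ± 2.39% in pifq and 8.26 ± 1.66% in WT, and HAT3 had 16.3 ± 0.995% in pifq and 26.9 ± 1.48% in WT.

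**Figure D3:**
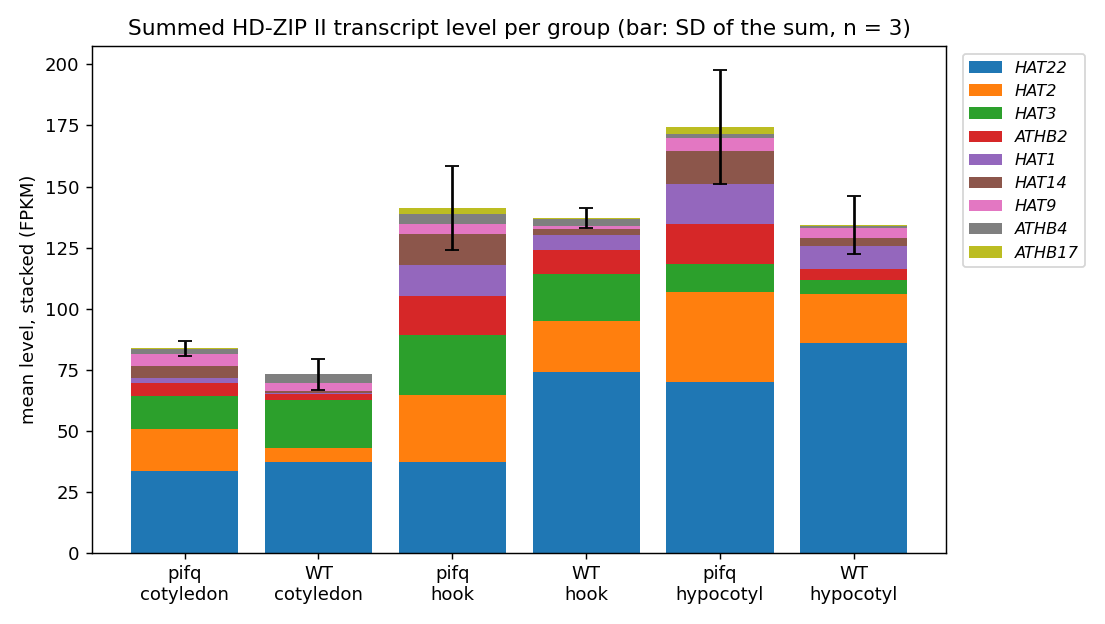
Mean FPKM of the 9 HD-ZIP II genes stacked per group (vertical axis, from 0), pifq left of WT in each organ, with a bar for the SD of the summed level over 3 libraries. Hook totals overlap (means of 141 FPKM in pifq, 137 FPKM in WT), while HAT22, the lowest block, makes up 26.6% in pifq and 53.9% in WT hooks.

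Across the 18 libraries the members did not vary as one group. Pearson's r of log2(FPKM + 1) was over 0.9 for 3 of the 36 pairs and below 0 for 11, with a median of 0.14. The 3 were HAT3 with ATHB4 (0.94), HAT14 with ATHB17 (0.93) and HAT1 with HAT2 (0.92), of which the first and the last are pairs of close relatives. HAT9 and HAT22, also close relatives, had -0.28, and HAT3 and HAT22 had the lowest value, -0.61. These r values describe 18 libraries in 6 groups, which share organs, genotypes and scaling, and so mostly follow the 6 group means.

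**Figure D4:**
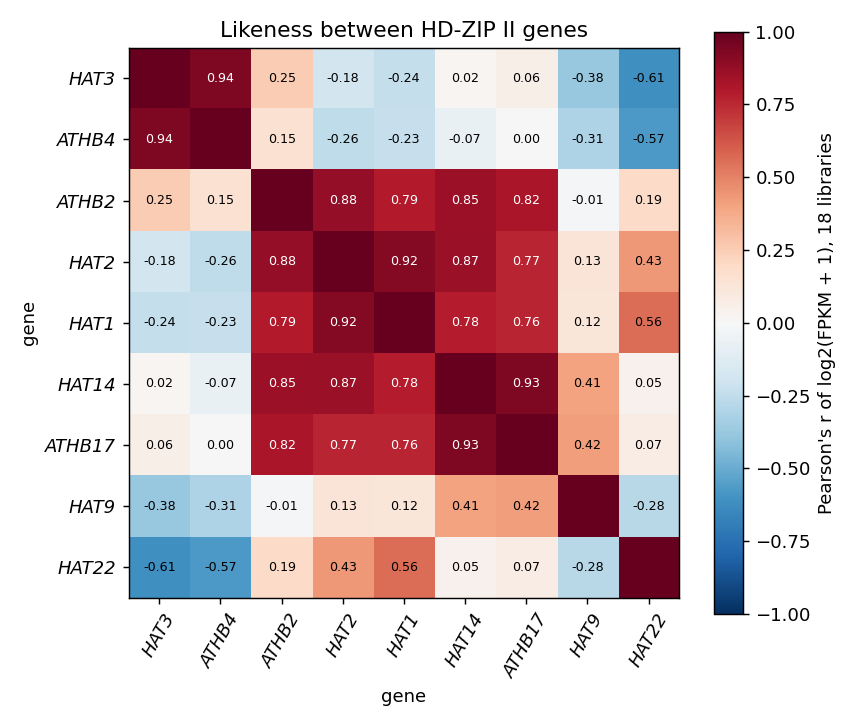
Pearson's r of log2(FPKM + 1) between HD-ZIP II genes over 18 libraries, with the genes on both axes and colour from -1 to 1. HAT3 and ATHB4 form a pair apart (0.94 together, -0.61 and -0.57 with HAT22), while ATHB2, HAT2, HAT1, HAT14 and ATHB17 make a block.

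Among 19339 genes outside the family, the nearest to HAT14 over the 18 libraries was EXPB3, a beta-expansin of the cell wall (r = 0.99), followed by BGLU6 and MSL5 (both 0.98). EXPB3 averaged 27.9 ± 4.18 FPKM in pifq and 2.42 ± 0.919 FPKM in WT cotyledons, 111 ± 20.5 FPKM in pifq and 12.2 ± 1.46 FPKM in WT hooks, and 137 ± 6.39 FPKM in pifq and 17.1 ± 2.54 FPKM in WT hypocotyls. Nearest to HAT22 were the sulfotransferase gene ST4C, AT5G57480 and the pectin methylesterase gene PME2 (0.98, 0.97 and 0.97). ST4C averaged 1.11 ± 0.506 FPKM in pifq and 30.0 ± 1.98 FPKM in WT hooks. ANNAT4, an annexin, came first for HAT1 (0.98), AT5G48460 for HAT2 (0.99), AT5G41060 for ATHB2 (0.97) and AT2G27385 for HAT3 (0.97). For ATHB4 it was AL7 (0.95) and for HAT9 SERAT2;1, a serine acetyltransferase (0.91). AT5G54710 stood closest to ATHB17 (0.97).

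The other HD-ZIP classes did not follow one direction. Class I, whose members act in abscisic acid and light responses, had 17 genes, of which 13 were tested: 2 rose and 3 fell in cotyledons, 3 rose and 7 fell in hooks, and 5 rose and 3 fell in hypocotyls, with median changes of 0.02, -0.42 and 0.14. HB12, a dehydration-induced gene, rose in all 3 organs (0.96, 2.07 and 1.36). HB52 averaged 0.654 ± 0.742 FPKM in pifq and 38.1 ± 5.98 FPKM in WT hooks, and 16.2 ± 1.14 FPKM in pifq and 92.2 ± 19.9 FPKM in WT hypocotyls, changes of -4.64 (adjusted p = 1.24e-08) and -2.42 (adjusted p = 2.34e-05). HB20 fell in hooks (-2.58), and HB51 (1.72) rose there. Class III, which promotes the upper side of organs and the vasculature, together with the small ZPR inhibitors numbered 9, of which 8 were tested. In cotyledons 2 rose and 2 fell, in hooks 6 rose and 1 fell, and in hypocotyls 4 rose, with medians of 0.09, 0.77 and 0.45. Of all genes, 24.4% were called higher and 35.4% lower in cotyledons, 36.6% and 24% in hooks, and 35.9% and 16.5% in hypocotyls. CNA and PHB had the signs of HAT3, lower in pifq cotyledons (-0.79 and -0.39) and higher in hooks (0.75 and 0.78) and hypocotyls (0.54 and 0.53). Other class III genes did not share the cotyledon fall. PHV rose in hooks (1.15) and hypocotyls (0.50) and was not called in cotyledons (0.23). REV rose in hooks (0.42) and was not called in cotyledons (-0.05) or hypocotyls (0.07). HB8, a marker of procambium, was higher in all organs (0.61, 0.87 and 0.64).

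TOPLESS and its 4 relatives, the corepressors that HD-ZIP II proteins recruit, had 3 lower and 2 not called in cotyledons, 2 higher and 2 lower in hooks, and 1 higher and 1 lower in hypocotyls. The shares of all genes called in these organs were 24.4%, 36.6% and 35.9% higher and 35.4%, 24% and 16.5% lower. TPL averaged 37.6 ± 5.87 FPKM in pifq and 69.0 ± 3.62 FPKM in WT cotyledons (-0.87, adjusted p = 2.39e-06), and TPR1 fell in all 3 organs (-0.69, -0.62 and -0.42). TPR3 (0.81) and TPR4 (0.46) rose in hooks.

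Other shade-induced genes went mostly against ATHB2. Of 12 such genes, all tested, 4 rose and 6 fell in cotyledons, 1 rose and 8 fell in hooks, and 2 rose and 8 fell in hypocotyls, with medians of -0.67, -0.95 and -0.87. Among all genes, 24.4%, 36.6% and 35.9% were called higher in these organs and 35.4%, 24% and 16.5% lower. XTH15, a cell wall enzyme, averaged 3.50 ± 2.20 FPKM in pifq and 939 ± 70.3 FPKM in WT cotyledons, 2.91 ± 0.262 FPKM in pifq and 500.4 ± 102 FPKM in WT hooks, and 13.6 ± 2.03 FPKM in pifq and 258 ± 112 FPKM in WT hypocotyls. HFR1, a helix-loop-helix inhibitor of PIFs, fell in all 3 organs (-3.59, -4.44 and -3.43). FHL, a partner in phytochrome A import, rose in cotyledons (0.58) and hypocotyls (0.44). The other risers were auxin genes, but not all auxin genes of the list rose. YUC9, an enzyme of auxin synthesis, rose in cotyledons (1.88) and hooks (0.68, with overlapping libraries) and fell in hypocotyls (-1.75). IAA19 rose in cotyledons (1.44), and IAA29 rose in cotyledons (1.011) and hypocotyls (1.23). TAA1 (-2.02 and -1.56) and YUC8 (-0.47 and -0.84), also of auxin synthesis, fell in hooks and hypocotyls and were not called in cotyledons. The summed level of the 12 was 61.1 to 62.5 FPKM in pifq and 963 to 1121 FPKM in WT cotyledons, where XTH15 alone averaged 939 FPKM. It was 104 to 141 FPKM in pifq and 709 to 928 FPKM in WT hooks. In hypocotyls it was 126 to 140 FPKM in pifq and 255 to 521 FPKM in WT.

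Of 6 procambium markers, 3 were called higher in cotyledons, 5 in hooks and 3 in hypocotyls, and the others were not called. Of all genes, 24.4%, 36.6% and 35.9% were called higher in these organs, and 35.4%, 24% and 16.5% lower. The list's median change was 0.21, 1.20 and 0.40. WOX4, a cambium regulator, averaged 2.45 ± 0.226 FPKM in pifq and 0.236 ± 0.00777 FPKM in WT hooks. MP, an auxin response factor, rose in hooks (1.53) and hypocotyls (0.99). The summed level of the 6 was 21.3 to 27.3 FPKM in pifq and 19.8 to 22.4 FPKM in WT cotyledons, 48.3 to 61.6 FPKM in pifq and 26.2 to 28.6 FPKM in WT hooks, and 66.5 to 74.0 FPKM in pifq and 47.2 to 57.4 FPKM in WT hypocotyls, and none was at 0 throughout a group. Root markers numbered 7, of which 2 were tested, and their sum of 17.3 to 36.1 FPKM over all libraries was mostly SCR, an endodermis gene of shoots too (group means of 17.8 ± 1.53 FPKM in pifq cotyledons to 27.2 ± 4.46 FPKM in WT hypocotyls), while RHD6, a root hair gene, was at 0 in cotyledons. The part of procambium in the changes of HD-ZIP II genes was not tested.

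**Figure D5:**
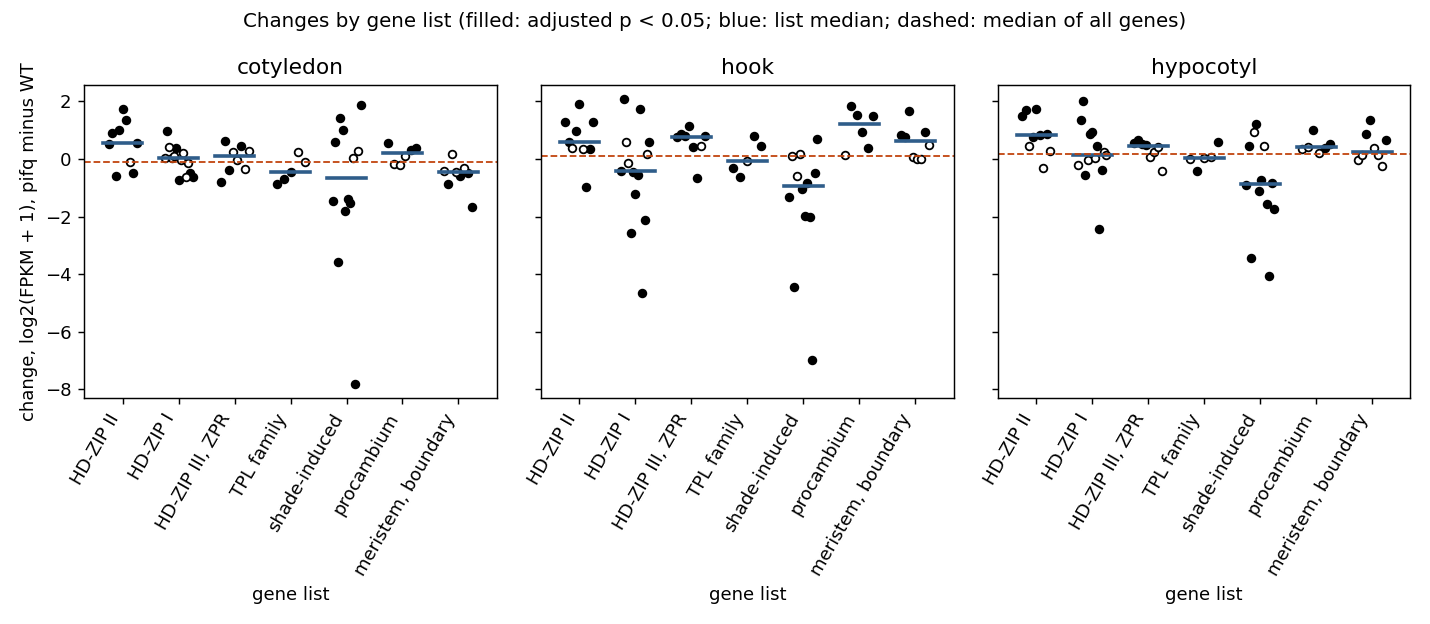
Change of each gene, pifq minus WT, in log2(FPKM + 1) (vertical axis) by gene list in cotyledon, hook and hypocotyl, with filled points for an adjusted p under 0.05, a blue bar at the list's median and a dashed line at the median of all genes. HD-ZIP II genes have medians of 0.55, 0.59 and 0.85 with ATHB17 included, procambium genes 0.21, 1.20 and 0.40, and shade-induced genes -0.67, -0.95 and -0.87.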

How the data were processed

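Per the labels' protocols, Trizol RNA was freed of DNA with DNase I, and libraries came from the NEBNext Ultra kit for RNA, a kit that keeps no strand. Each deposited file gives 1 value per gene. The authors' unit was read from the values as FPKM, since low values times the exon length of their gene fell on whole multiples of 1 step per library. Of the nonzero nuclear values below 100 reads, 99.3695% to 99.4963% lay within 0.05 of a whole read. The tools named per the submitters' processing notes are DESeq2 and HISAT2, with the build TAIR10, without role or version, and the counting tool, annotation and filters are not given in the sources used here. Reads were recovered for 25788 genes with exon lengths of RefSeq's TAIR10.1, from which coordinates and sequences also come; the files hold none. No 2 libraries were identical.

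The 19349 of 26073 genes that reached 1 FPKM in 3 or more of 18 libraries were fitted as log2(FPKM + 1) in 1 limma 3.58.1 model (R 4.3.3) of 6 group means with an intensity trend and no block. Contrasts gave the changes in each organ, their differences between organs and the organ differences in each genotype. P-values were adjusted by the Benjamini-Hochberg method over all genes per contrast and called under 0.05. A limma-voom fit of the recovered reads called 11424, 11591 and 10124 genes in cotyledon, hook and hypocotyl, against 11565, 11738 and 10137 in the reported fit. The other alternatives were median-ratio scaling, a pseudocount of 0.1, no filter, a minimum of 5 FPKM, removal of 236 organelle genes, the organelle share as a covariate, only the libraries compared, a replicate block and each library left out. The code of the fit was run on simulated cotyledon libraries of the 2 genotypes only. That setting is simpler than the 18 libraries and does not bear on scaling or the organelle share. The members and lists were chosen with earlier results of these data known. Genes to name from each list were up to 2 called rises and 2 called falls of the largest change per organ without overlap. Only some of the genes that this rule gave are named in the text. For each member the 3 genes of highest correlation were named. YAB3, STM in hooks, PHB, REV, TPR4, FHL, TAA1, YUC8, further organs of a named gene, and SCR were named after their values were seen. One gene of the procambium list is not reported here and was left out of its counts. Protein sequences were not used here.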

Additional observations from a re-analysis of the deposited data

Results flagged for a closer look

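Each value here is a difference between organs in the change of an HD-ZIP II gene, pifq minus WT on the log2(FPKM + 1) scale, that passed limma's test with adjustment over all genes. HAT3 changed by 0.84 more in hooks than in cotyledons (adjusted p = 0.000919), by 1.34 more in hypocotyls than in cotyledons (1.44e-05) and by 0.50 more in hypocotyls than in hooks (0.0343). ATHB4, its close relative, had differences of 0.98 for hooks over cotyledons (adjusted p = 0.00627) and 1.04 for hypocotyls over cotyledons (0.00375). ATHB17 had 0.78 (0.00881) and 0.98 (0.00167) for the same contrasts, at levels of 0 to 2 reads in WT cotyledon libraries, and neither call held with limma-voom or a pseudocount of 0.1. It passed the filter through pifq libraries alone, so its p-values add no support of their own. ATHB2 changed more in hypocotyls than in cotyledons, by 0.83 (0.0251), and more than in hooks, by 1.12 (0.00748). Median-ratio scaling (0.43, adjusted p = 0.238), limma-voom (0.119) and a pseudocount of 0.1 (0.0666) ended the call for hypocotyls over cotyledons. The change of HAT2 in hooks minus that in cotyledons was -1.001 (0.00461). For HAT22 the hook minus cotyledon difference was -0.85 (0.00164) and the hypocotyl minus hook difference 0.66 (0.0125), and for HAT9 the hypocotyl minus hook difference was -0.98 (0.0291).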

How the results depend on the processing

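Of 21 calls of the 9 genes between genotypes, 3 were of ATHB17, which passed the filter through pifq libraries alone. Of the 21, 11 held in each of the 27 other settings in which the gene was tested. They were those of HAT14 in the 3 organs, HAT2 in cotyledons and hypocotyls, ATHB17 in hooks and hypocotyls, ATHB2 and HAT3 in hypocotyls, and HAT9 and HAT22 in hooks. ATHB17, with no library above 3.68 FPKM, was not tested with the minimum of 5 FPKM. The organelle share as a covariate lost 9 calls, median-ratio scaling 3, and the pseudocount of 0.1, no filter and removal of organelle genes 1 each, that of HAT9 in cotyledons. With the covariate 3 members and 6058 genes were called in cotyledons and 4 members and 5960 genes in hooks; this share differs between the genotypes, and the cause of the loss was not tested. It also turned HAT2 in hooks to -0.11, SCR in cotyledons to 0.11, and the hypocotyl differences of HAT1 to 0.023 (from cotyledon) and 0.080 (from hook), of ATHB4 from hook to -0.090 and of HAT14 from hook to 0.17. Median-ratio scaling turned HAT22 in cotyledons to 0.087. The HAT14 hook minus cotyledon difference became -0.19 with that scaling, -0.37 with limma-voom and -0.29 with a pseudocount of 0.1, and its hypocotyl minus cotyledon difference became -0.38, -0.60 and -0.52. Limma-voom gave ATHB17 -0.87 and -0.64 for these differences. Members called for hook minus cotyledon numbered 3 with a minimum of 5 FPKM, and for hypocotyl minus cotyledon 2 with limma-voom, with a pseudocount of 0.1 and with a minimum of 5 FPKM, at which fewer genes were tested. Without single libraries the members called ranged from 7 to 8 in cotyledons, 5 to 8 in hooks, 5 to 7 in hypocotyls and 2 to 4 for hypocotyl minus hook. The range was -0.23 to 0.15, -0.49 to 0.037 and -0.49 to 0.040 for the hook minus cotyledon, hypocotyl minus cotyledon and hypocotyl minus hook differences of HAT1, -0.13 to 0.26 for ATHB4 (hypocotyl minus hook), -0.18 to 0.16 for HAT14 (hypocotyl minus cotyledon) and -0.22 to 0.0057 for HAT22 in cotyledons. The replicate numbers are shared by label only, and deviations of same-numbered libraries correlated at -0.00979 to 0.247 over genes; with the replicate block 8, 7 and 7 members and 11470, 11605 and 10015 genes were called in cotyledon, hook and hypocotyl, with HAT22 in hypocotyls added (adjusted p = 0.0499). Low reads limit ATHB17 and ATHB18 in WT, and 3 libraries per group limit the rest.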
